A study of Mus musculus with 15 samples.

Results

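Glutathione transferases were followed in hearts of mice with a deletion of Acsl1, whose enzyme links long fatty acids to coenzyme A so that mitochondria can burn them. The genes are Gsta1, Gsta2, Gsta3 and Gsta4 of the alpha class, Gstm1 and Gstm2 of the mu class, Gstp1 of the pi class, Gstk1 of the kappa class, and Gstt1 and Gstt2 of the theta class. They were found by their symbols in the probe annotation, and all 10 were measured, with 13 of 32664 probes and as 10 of 19532 genes. The family was chosen by the measured difference of Gsta1 and Gsta2 between knockout and control hearts at 10 weeks. Values of that contrast are therefore a description of these genes and carry no test here, while the 2-week hearts are other arrays and were tested.

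The 4 groups were Acsl1H-/- hearts 2 weeks after tamoxifen (knockout, n = 3), Acsl1flox/flox hearts at 2 weeks (flox control, n = 4), Acsl1H-/- hearts at 10 weeks (knockout, n = 4) and Acsl1flox/flox hearts at 10 weeks (flox control, n = 4). All mice were males labelled C57Bl/J6 and received tamoxifen at 75 mg/kg on 4 days, at an age of 6 to 8 weeks, so the controls carried the flox alleles and had the drug too. The promoter that drives the recombinase is not given in the sources used here, and no group had the recombinase with Acsl1 intact, so the deletion and the recombinase cannot be told apart. Ventricle RNA labelled with Cy5 was hybridised to 2-colour Agilent arrays against a Cy3-labelled whole mouse reference RNA.

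Glutathione transferases join the tripeptide glutathione to reactive electrophiles, which makes these more soluble and ready for export. Alpha class enzymes also reduce lipid hydroperoxides and conjugate the aldehydes that arise when membrane lipids are oxidised. Many of their genes are known targets of the transcription factor NRF2, and some of the aryl hydrocarbon receptor.

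All values are ratios of heart over reference, taken here as log2 since the base is not stated, and deposited in a centred form in which the median over the 15 arrays was 0 for each probe. A value of a gene therefore shows how its arrays differ from each other and holds no level, so genes cannot be ranked by abundance, and the identity of the tissue cannot be checked from its markers. The direction of the ratio is likely, from the order of the dyes, but not stated, and with the opposite sign each higher value below would be a lower one. The level of Acsl1 was not analysed here, which leaves the deletion unchecked. In whole ventricle, fewer cells of a type and less RNA per cell cannot be told apart. The labels call the arrays biological replicates. Array medians ran from -0.0207 to 0.0325, and without signals over background the number of arrays limits the precision.

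Gsta1 and Gsta2 encode alpha class subunits known for peroxidase activity toward lipid hydroperoxides. Gsta1 had 3.26, 3.99, 2.95 and 3.82 in the 4 knockout hearts of 10 weeks, against 0.71, -0.10, -1.50 and 0.61 in the 4 flox controls of 10 weeks. Gsta2 had 3.25, 3.77, 3.25 and 3.93 in the same knockouts, against -0.65, 0.87, -0.39 and -0.80 in the same controls. Every late knockout lay above every late control for both genes, and the gap between the groups was over 2 log2 units for each. Gsta1 averaged 3.51 ± 0.48 in late knockouts and -0.07 ± 1.02 in late controls, and Gsta2 3.55 ± 0.35 in late knockouts and -0.24 ± 0.76 in late controls (SD, n = 4 each). The log2 difference was 3.58 ± 0.41 for Gsta1 (knockout minus control, ± SE from limma) and 3.79 ± 0.35 for Gsta2, which are ratios of 11.9 and 13.9. By size, Gsta2 had the 1st and Gsta1 the 3rd highest difference of the 19532 genes.

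At 2 weeks neither gene separated the groups. Gsta1 had 0.00, -0.44 and 0.02 in the 3 knockouts, against -0.82, -0.40, -0.03 and -0.02 in the 4 controls. Gsta2 had 0.17, -0.08 and -0.65 in knockouts, against -0.66, 0.00, 0.12 and -0.84 in controls. The ranges overlapped for both genes, with log2 differences of 0.18 ± 0.45 for Gsta1 (limma adjusted p = 0.951) and 0.16 ± 0.38 for Gsta2 (limma adjusted p = 0.949). The 95% intervals of these differences were -0.79 to 1.15 and -0.66 to 0.98, so smaller shifts in either direction were not resolved. These widths carry the spread of all 4 groups. For Gsta1 the SD was 0.26 in knockouts and 0.38 in controls of 2 weeks, but 1.02 in late controls. At 10 weeks the same intervals were 2.68 to 4.47 for Gsta1 and 3.03 to 4.56 for Gsta2.

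**Figure D1:**
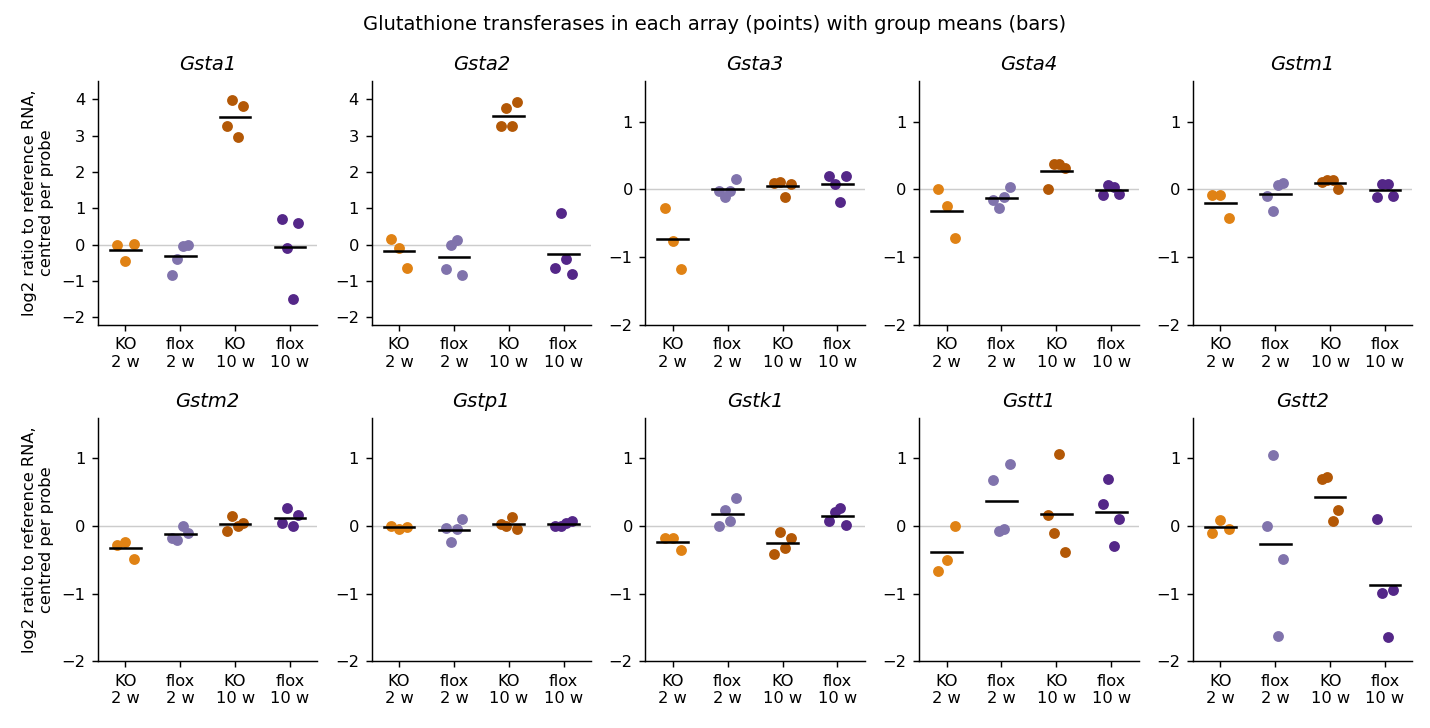
Centred log2 ratio to reference RNA of each glutathione transferase (vertical axis; the scale for Gsta1 and Gsta2 is wider than for the other 8 genes) in knockout (KO) and flox control hearts at 2 and 10 weeks (horizontal axis). Points are arrays and bars are group means. Gsta1 and Gsta2 stand near 3.5 in the 4 late knockouts and spread around 0 elsewhere, while Gstk1 is lower in knockouts at both times.

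Outside the late knockouts no joint variation of the pair was seen. Over the other 11 arrays Pearson's r between Gsta1 and Gsta2 was -0.12, against 0.92 over all 15. Both values describe arrays that share a common reference, and 11 arrays leave r imprecise. The late controls scattered most, with standard deviations of 1.02 for Gsta1 and 0.76 for Gsta2 (n = 4), against 0.48 and 0.35 in late knockouts (n = 4). The lowest of all Gsta1 values, -1.50, belonged to flox control 10 weeks replicate 3, and without that array the difference of Gsta1 was 3.10. Each gene had 1 probe. As the 2 genes are close relatives within a cluster of alpha class genes on chromosome 9, a probe made for 1 may also take up RNA of the other, which was not tested, since probe sequences were not used here.

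**Figure D2:**
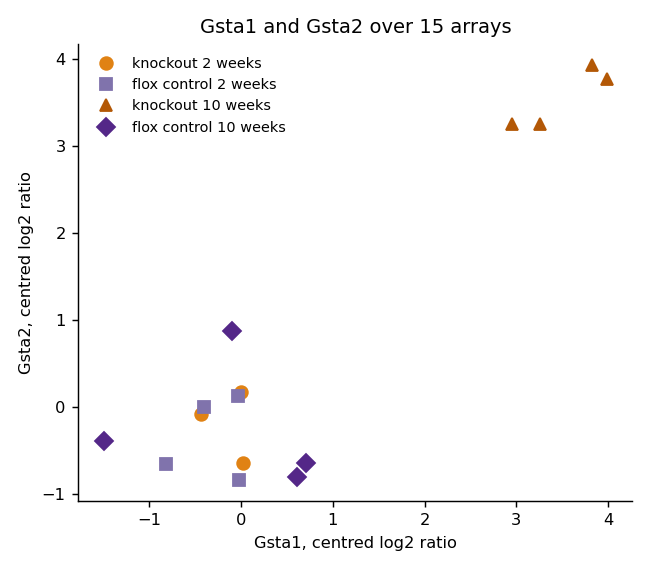
Gsta2 (vertical axis) against Gsta1 (horizontal axis), both as centred log2 ratios, with 1 point for each of the 15 arrays and groups by symbol. The 4 knockout hearts of 10 weeks lie between 2.95 and 3.99 on both axes, and the other 11 arrays form a scatter around 0 with r = -0.12.

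The promoters of Gsta1 and Gsta2, and that of Gsta3 as an alpha class gene without such a difference at 10 weeks, are shown to set the pair with a high late value beside a relative without one. The windows run from 250 bases before to 50 after the gene's start in RefSeq, build GRCm38.p6, at chr9:78230419-78230718 on the plus strand for Gsta1, chr9:78347096-78347395 on the minus strand for Gsta2 and chr1:21240335-21240634 on the plus strand for Gsta3. Capitals mark matches to GCGTG, the core of the xenobiotic response element bound by the aryl hydrocarbon receptor, or to TGACNNNGC, the core of the antioxidant response element bound by NRF2.
Gsta1: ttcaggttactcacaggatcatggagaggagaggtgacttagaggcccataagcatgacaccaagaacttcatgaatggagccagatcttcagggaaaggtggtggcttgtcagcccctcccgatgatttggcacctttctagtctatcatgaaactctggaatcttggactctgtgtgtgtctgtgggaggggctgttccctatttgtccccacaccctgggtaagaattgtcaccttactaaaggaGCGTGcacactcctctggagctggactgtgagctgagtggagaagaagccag
Gsta2: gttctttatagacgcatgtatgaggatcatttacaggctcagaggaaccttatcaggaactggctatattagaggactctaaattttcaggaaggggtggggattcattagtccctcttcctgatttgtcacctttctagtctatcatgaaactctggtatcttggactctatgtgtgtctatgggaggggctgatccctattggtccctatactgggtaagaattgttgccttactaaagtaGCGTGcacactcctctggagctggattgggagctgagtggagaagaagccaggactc
Gsta3: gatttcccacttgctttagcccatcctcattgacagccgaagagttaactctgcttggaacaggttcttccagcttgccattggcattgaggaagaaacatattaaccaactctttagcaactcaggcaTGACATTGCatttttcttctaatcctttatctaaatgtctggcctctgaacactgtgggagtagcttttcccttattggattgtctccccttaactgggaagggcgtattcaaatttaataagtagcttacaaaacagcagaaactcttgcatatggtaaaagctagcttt
When aligned, the windows of Gsta1 and Gsta2 were identical at 232 of 311 columns (74.6%), against 39.9% to 53.1% for the other 27 pairs among the 8 genes with a window. Their longest shared run, cacctttctagtctatcatgaaactctgg, has 29 bases and begins at position -118 from the start of Gsta1 and -121 from that of Gsta2. GCGTG, searched on both strands, began at position -2 from the start of Gsta1 and -7 from that of Gsta2. It was also found in Gstm1 and Gstp1, thus in 4 of 8 genes, and in 32.4% of all 32851 windows of this length. TGACNNNGC was found in Gsta3 alone of the 8 genes, as TGACATTGC at position -121 from the start, and in 12.4% of all windows. TGATGNAA, the core of the element that ATF4 and CEBP factors bind, was in none of the 8 genes and in 3.97% of all windows. These are matches of letters within 300 bases and show no binding. Sites farther from the start were not searched, so a window without a match does not mean a gene without the element.

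Gsta3 and Gsta4 are the other alpha class genes, and neither had a late difference of that size. Gsta3, which in mouse conjugates the epoxide of aflatoxin, had its contrast at 2 weeks, with -0.28, -0.76 and -1.18 in knockouts against -0.02, -0.11, -0.02 and 0.16 in controls. All 3 knockouts lay below all 4 controls. The log2 difference was -0.74 ± 0.17, with an unadjusted p of 9.5e-04, and it did not pass over all genes (limma adjusted p = 0.371). With limma fitted to the 2-week hearts only, the adjusted p was 0.73. The 2 probes of Gsta3 disagreed in size. Probe A_52_P432124 gave -0.59, -1.15 and -1.82 in knockouts against 0.06, 0.17, -0.02 and -0.08 in controls, a difference of -1.22 ± 0.23 (limma adjusted p = 0.183 over all probes). Probe A_51_P503625 gave 0.03, -0.36 and -0.55 in knockouts against -0.10, -0.40, -0.03 and 0.40 in controls, a difference of -0.26 ± 0.18 (limma adjusted p = 0.792 over all probes, of which 0.0153% were called). The groups were apart on probe A_52_P432124 and overlapped on probe A_51_P503625, so the size of the Gsta3 difference rested on 1 probe.

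At 10 weeks Gsta3 stood level, with 0.09, 0.11, -0.11 and 0.08 in knockouts against 0.20, 0.08, -0.18 and 0.20 in controls and a difference of -0.03 ± 0.16. Gsta4 encodes the alpha class enzyme with the highest known activity toward 4-hydroxynonenal, an aldehyde from oxidised lipids. It had 0.01, 0.37, 0.37 and 0.31 in knockouts of 10 weeks, against -0.09, 0.06, 0.04 and -0.07 in controls of 10 weeks. The lowest of the knockouts lay among the controls and the other 3 above them, with a difference of 0.28 ± 0.14. At 2 weeks Gsta4 had 0.00, -0.24 and -0.72 in knockouts against -0.16, -0.27, -0.11 and 0.03 in controls, and the difference of -0.19 ± 0.15 did not pass (limma adjusted p = 0.802).

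**Figure D3:**
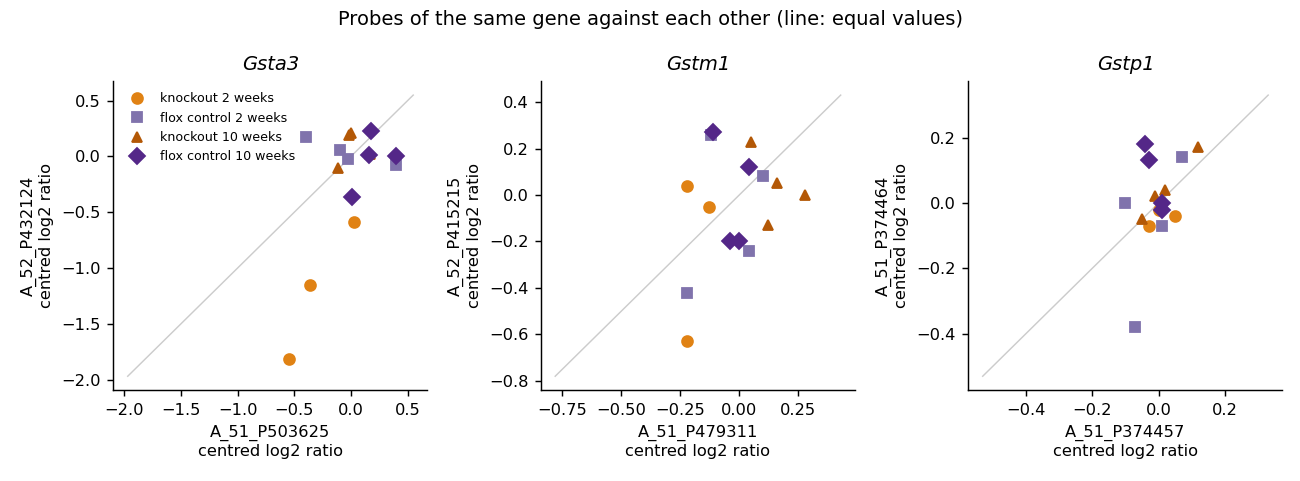
The 2 probes of Gsta3, Gstm1 and Gstp1 set against each other as centred log2 ratios, with 1 point per array, groups by symbol and a line where both probes would be equal. The 3 knockout hearts of 2 weeks fall far below the line for Gsta3, down to -1.82 on one probe and -0.55 on the other, while the lowest Gstp1 value, -0.38 in a flox control of 2 weeks, is seen on 1 of its probes.

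Gstm1 and Gstm2, of the mu class that conjugates epoxides and other electrophiles, differed little between groups. Gstm1 had -0.09, -0.09 and -0.43 in knockouts of 2 weeks against -0.10, -0.32, 0.07 and 0.09 in controls, and 0.11, 0.14, 0.14 and 0.00 in knockouts of 10 weeks against -0.12, 0.08, 0.08 and -0.10 in controls. The groups overlapped at both times. The differences were -0.14 ± 0.12 at 2 weeks (limma adjusted p = 0.830) and 0.11 ± 0.11 at 10 weeks. Of its 2 probes, A_51_P479311 had 0.05 to 0.28 in late knockouts, all above the -0.11 to 0.04 of late controls, while A_52_P415215 overlapped (differences 0.18 ± 0.09 and 0.04 ± 0.19). Gstm2 had -0.28, -0.23 and -0.48 in knockouts of 2 weeks, against -0.17, -0.21, 0.00 and -0.11 in controls. The 3 knockouts lay below the 4 controls by a narrow gap, from -0.23 to -0.21, and the difference of -0.21 ± 0.10 did not pass (limma adjusted p = 0.712). At 10 weeks Gstm2 had -0.08, 0.15, 0.00 and 0.05 in knockouts against 0.05, 0.26, 0.00 and 0.16 in controls, which overlap, and the difference was -0.09 ± 0.09.

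Gstk1 was the member whose groups were apart in the same direction at both times. It encodes the kappa class enzyme of mitochondria and peroxisomes, the organelles that oxidise fatty acids. In knockouts of 2 weeks it had -0.17, -0.18 and -0.35, against 0.00, 0.24, 0.08 and 0.41 in controls of 2 weeks. In knockouts of 10 weeks it had -0.42, -0.09, -0.33 and -0.17, against 0.08, 0.21, 0.27 and 0.02 in controls of 10 weeks. Knockouts lay below controls without overlap each time. The difference at 2 weeks was -0.41 ± 0.12, with an unadjusted p of 0.005, and did not pass over all genes (limma adjusted p = 0.489). At 10 weeks it was -0.40 ± 0.11. Both sets of arrays are separate, and each difference is a ratio of about 0.75 (0.751 and 0.760). Groups were apart and lower at both times for 1 of the 10 genes and for 0.348% of all genes.

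Gstp1, the pi class enzyme, which also binds the stress kinase JNK, was the flattest of the family. Its 15 values lay between -0.23 and 0.14. The differences were 0.03 ± 0.09 at 2 weeks (95% interval -0.17 to 0.23, limma adjusted p = 0.961) and 0.00 ± 0.08 at 10 weeks.

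The theta class genes varied widely within groups. Gstt1, which in mammals acts on halogenated methanes, had -0.66, -0.50 and 0.00 in knockouts of 2 weeks against 0.68, -0.07, -0.04 and 0.91 in controls, where 1 knockout lay among the controls. Its difference of -0.75 ± 0.35 at 2 weeks did not pass (limma adjusted p = 0.693), and it was -0.02 ± 0.33 at 10 weeks, where 0.16, -0.11, 1.07 and -0.39 in knockouts overlapped with 0.32, 0.69, -0.29 and 0.11 in controls. Gstt2 had 0.70, 0.73, 0.08 and 0.23 in knockouts of 10 weeks, against 0.11, -0.99, -1.64 and -0.95 in controls of 10 weeks. The highest of these controls lay between the lowest pair of knockouts, and the difference was 1.30 ± 0.47. At 2 weeks its controls ran from -1.63 to 1.05 around knockouts of -0.11, 0.09 and -0.04, and the difference of 0.25 ± 0.51 did not pass (limma adjusted p = 0.937).

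Over the family, none of the 10 genes was called at 2 weeks by limma at an adjusted p under 0.05, where 0.00512% of all genes were. At an unadjusted p under 0.05 there were 2, Gsta3 and Gstk1, both lower in knockouts, beside 7.25% of all genes (3.63% lower). Groups were apart for 3 members, Gsta3, Gstm2 and Gstk1, all lower in knockouts, where 4.52% of all genes were lower and apart. Of the 10 differences 6 were below 0, with a median of -0.17 against -0.0216 over all genes, of which 53.7% were below 0. At 10 weeks 2 members were called and higher, Gsta1 and Gsta2, beside 0.686% of all genes called in either direction (0.358% higher and 0.328% lower), a count from the contrast that led to the choice of the family. Groups were apart for 3 members at 10 weeks, 2 higher and 1 lower, beside 6.6% of all genes (3.24% higher and 3.36% lower), and the median difference of the 10 was 0.06 against -0.0179 over all genes.

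**Figure D4:**
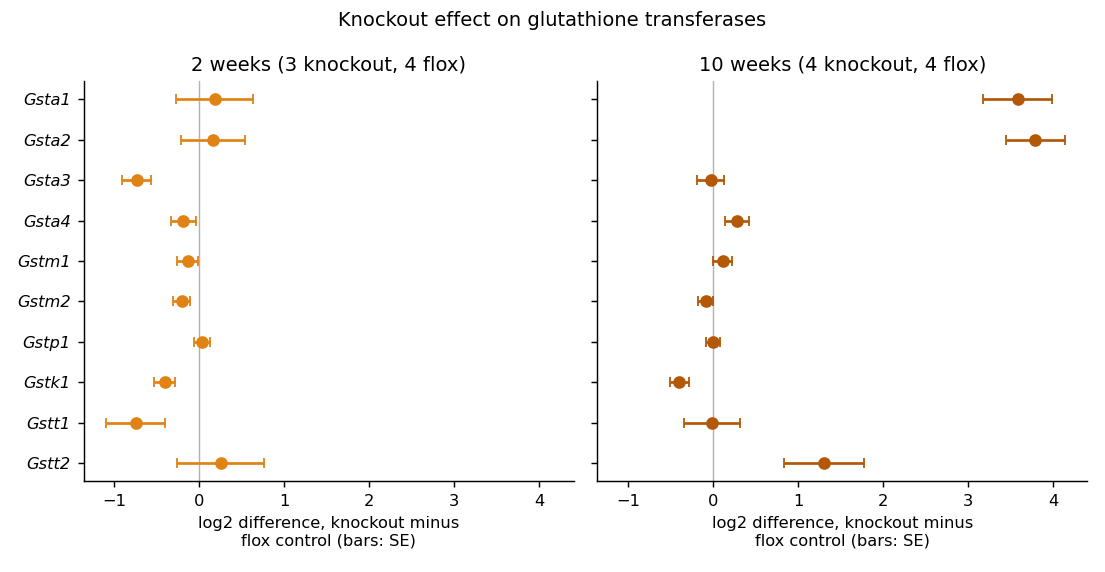
Log2 difference between knockout and flox control hearts (horizontal axis, points with bars of 1 SE) for each glutathione transferase (vertical axis) at 2 weeks on the left and at 10 weeks on the right. Gsta1 and Gsta2 lie at 3.58 and 3.79 at 10 weeks and at 0.18 and 0.16 at 2 weeks, and Gstk1 lies near -0.4 in both panels.

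Many of the lowest early values belonged to 1 array. Knockout 2 weeks replicate 3 held the lowest of the 3 knockout values for 6 of the 10 members. Without it the median member difference at 2 weeks was -0.01, that of Gsta3 was -0.52 and that of Gsta4 was 0.00. Scores of other cell types, each the mean centred ratio of its markers, also parted the 2-week groups for 3 of 9 lists. Of single genes 4.52% were apart and lower at 2 weeks, a share that is no like measure for means of several genes. The fibroblast score (12 genes) was 0.27 to 0.89 in knockouts, against -0.29 to 0.25 in controls, and the endothelial score (10 genes) was 0.16 to 0.30 in knockouts, against -0.13 to 0.10 in controls. The red blood cell score (4 of 8 genes measured) was -0.67 to -0.47 in knockouts, against -0.39 to 0.12 in controls. Their part in the values of Gsta3, Gstm2 and Gstk1 was not tested. At 10 weeks the hepatocyte score (13 of 14 genes measured) was -0.19 to 0.10 in knockouts, against -0.09 to 0.27 in controls, and 4 of the 13 markers had a difference above 0 (median -0.10). The part of liver RNA in the values of Gsta1 and Gsta2 was not tested. The scores of knockouts and controls overlapped for all 9 lists at 10 weeks, the fibroblast score with -0.16 to 0.37 in knockouts and -0.61 to 0.02 in controls. Fibroblast markers had differences above 0 for 12 of 12 genes at 2 weeks (median 0.58) and for 11 of 12 at 10 weeks (median 0.27), with none called by limma at either time. The 1 marker called in any list was Cidea, a lipid droplet protein of the adipocyte list, named after its value was seen. It had 0.31 to 0.73 in late knockouts against -0.26 to 0.06 in late controls (0.69 ± 0.12, limma adjusted p = 0.0249). At 10 weeks 0.686% of all genes were called. Of the 12 adipocyte markers measured, 6 had a difference above 0 at 10 weeks (median 0.01). The part of these cell types in the late values of the family was not tested.

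The time after tamoxifen was compared within each genotype. As all mice had the drug at an age of 6 to 8 weeks, the later hearts were also older. Time after tamoxifen and age cannot be told apart. In flox controls the arrays of 10 and 2 weeks overlapped for all 10 members, where 2.72% of all genes were apart in either direction. The control differences (10 minus 2 weeks) ran from -0.60 ± 0.47 for Gstt2 to 0.25 ± 0.41 for Gsta1. Gstm2 was also higher in late controls, by 0.23 ± 0.09 (95% interval 0.03 to 0.44), with the arrays of both times meeting at 0.00. The knockout effect on Gstm2 at 10 weeks minus that at 2 weeks was 0.12 ± 0.14. In knockouts the arrays of 10 weeks lay above those of 2 weeks without overlap for 6 members, Gsta1, Gsta2, Gsta3, Gsta4, Gstm1 and Gstm2, beside 5.78% of all genes, and below them for 0 members, beside 7.66% of all genes. These differences were 3.65 ± 0.45 for Gsta1, 3.73 ± 0.38 for Gsta2, 0.78 ± 0.17 for Gsta3, 0.58 ± 0.15 for Gsta4, 0.30 ± 0.12 for Gstm1 and 0.36 ± 0.10 for Gstm2. They share the late knockouts with the contrast that led to the family and are given without a test. Late knockouts averaged 0.04 ± 0.10 for Gsta3 and 0.03 ± 0.10 for Gstm2, against 0.08 ± 0.18 and 0.11 ± 0.11 in late controls (SD, n = 4 each).

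Other genes of the same chemistry were counted in 5 lists. Of 16 other glutathione transferases measured, none was called at either time. Those with the smallest p at 10 weeks were Gstm5, at -0.47 ± 0.12 (limma adjusted p = 0.132), the membrane-bound Mgst3, at -0.60 ± 0.20 (limma adjusted p = 0.260), and Mgst1, at -0.38 ± 0.14 (limma adjusted p = 0.319). All 4 knockouts lay below all 4 controls for Gstm5 and Mgst1. At 2 weeks Mgst2, a microsomal enzyme that also makes leukotriene C4, was at -1.09 ± 0.30 (limma adjusted p = 0.468), with -0.68 to -0.42 in knockouts and -0.02 to 1.54 in controls. Next came Mgst1, at -0.39 ± 0.15 (limma adjusted p = 0.633), and Hpgds, the prostaglandin D synthase of this family, at -0.34 ± 0.17 (limma adjusted p = 0.722). The median of the list was 0.06 at 2 weeks and 0.03 at 10 weeks.

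Genes that make, recycle and break down glutathione gave 1 call in 20 at 10 weeks, higher, beside 0.358% of all genes, and none at 2 weeks. It was Chac1, a cytosolic enzyme that degrades glutathione, with 1.43 to 2.10 in knockouts against -0.51 to 0.73 in controls and a difference of 1.74 ± 0.29 (limma adjusted p = 0.0162). Its adjusted p by limma was 0.0583 and 0.0572 without knockout 10 weeks replicates 2 and 4, and 0.0542 and 0.05 without flox control 10 weeks replicates 1 and 4. Dpep1, a membrane dipeptidase that cleaves the dipeptide from glutathione conjugates and is also a fibroblast marker, was at 0.77 ± 0.18 at 10 weeks (limma adjusted p = 0.0781, and 0.0158 without flox control 2 weeks replicate 2) and at 0.79 ± 0.19 at 2 weeks (limma adjusted p = 0.371). Lap3, a leucine aminopeptidase, was at 0.25 ± 0.07 at 10 weeks (limma adjusted p = 0.178). At 2 weeks Dpep2, a related dipeptidase, was at 0.26 ± 0.12 (limma adjusted p = 0.689) and Slc7a11, the cystine importer, at -0.17 ± 0.09 (limma adjusted p = 0.744). The median of the list was -0.01 at 2 weeks and 0.22 at 10 weeks.

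Of 19 genes of aldehyde detoxification and conjugate export none was called at either time. Abcc1, a pump that exports glutathione conjugates, was at -0.69 ± 0.15 at 10 weeks, with -0.72 to -0.42 in knockouts and 0.03 to 0.21 in controls (limma adjusted p = 0.0693). It passed without knockout 2 weeks replicate 1 or 2 (limma adjusted p = 0.0439 and 0.02). Abcc5, a related pump, was at -0.75 ± 0.23 (limma adjusted p = 0.210). The other 3 exporters of the list had differences above 0 that did not pass, with 0.59 ± 0.35 for Abcc2 (limma adjusted p = 0.654), 0.27 ± 0.18 for Abcc3 (limma adjusted p = 0.70) and 0.28 ± 0.26 for Abcc4 (limma adjusted p = 0.809). At 2 weeks Cbr1, which reduces carbonyls, was at -0.41 ± 0.15 (limma adjusted p = 0.630), Abcc3 at -0.45 ± 0.19 (limma adjusted p = 0.651) and Abcc1 at -0.36 ± 0.16 (limma adjusted p = 0.680). Aldh9a1, an aldehyde dehydrogenase, was at 0.80 ± 0.34 at 10 weeks (limma adjusted p = 0.442). The median of the list was -0.08 at 2 weeks and 0.18 at 10 weeks.

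Among NRF2 and its classic targets 1 of 22 was called at 10 weeks, higher, beside 0.358% of all genes, and none at 2 weeks. Ftl1, the ferritin light chain that stores iron, had 0.39 to 0.85 in late knockouts against -0.11 to 0.00 in late controls. Its difference was 0.75 ± 0.11 (limma adjusted p = 0.00598). Prdx1, a peroxiredoxin, was at 0.47 ± 0.11 (limma adjusted p = 0.0835). Nqo1, a quinone reductase, was at 0.87 ± 0.23 (limma adjusted p = 0.130, and 0.0364 without flox control 2 weeks replicate 3). For both, all 4 knockouts lay above all 4 controls. At 2 weeks Ftl1 was at 0.26 ± 0.12 (limma adjusted p = 0.659) and Bach1, a repressor of these targets, at -0.35 ± 0.16 (limma adjusted p = 0.689). The median of the list was -0.08 at 2 weeks and 0.16 at 10 weeks.

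Of the aryl hydrocarbon receptor and its classic targets 1 of 10 was called at 10 weeks, lower, beside 0.328% of all genes. That was Cyp1a1, the monooxygenase most used as a readout of the receptor, with -1.06 to 0.35 in knockouts against 1.25 to 2.04 in controls of 10 weeks. It fell by 2.17 ± 0.41 on the log2 scale (limma adjusted p = 0.0305). Its call by limma was lost without any single one of late knockout replicates 1, 2 and 3 (0.0942, 0.0626 and 0.0837 as adjusted p) or late flox replicates 1, 2, 3 and 4 (0.0542, 0.0884, 0.0791 and 0.0830 as adjusted p), and with replicate number as a block (adjusted p = 0.0831). At 2 weeks it was at -1.29 ± 0.44 (limma adjusted p = 0.589). Ahrr, the repressor of the receptor, was at 1.37 ± 0.53 at 10 weeks (limma adjusted p = 0.377), opposite in sign to Cyp1a1. With limma, 4 genes of the list were higher at 10 weeks at an unadjusted p under 0.05, namely Nqo1, Ahrr, Arnt and Ahr. Only 1 was lower, Cyp1a1, beside 9.96% of all genes in either direction. The median of the list was -0.16 at 2 weeks and 0.20 at 10 weeks. The 5 lists were written with earlier results of these data known, so their counts are a description. Over their 82 different genes, 0 were called by limma at 2 weeks, beside 0.00512% of all genes. At 10 weeks 3 were called, beside 0.686% of all genes. An unadjusted p under 0.05 was found for 3 higher and 6 lower genes at 2 weeks, beside 7.25% of all genes in either direction (3.63% lower). At 10 weeks it was found for 16 higher and 7 lower genes, beside 9.96% of all genes in either direction. That share was not split by direction here, so the balance of higher and lower genes cannot be set against it.

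**Figure D5:**
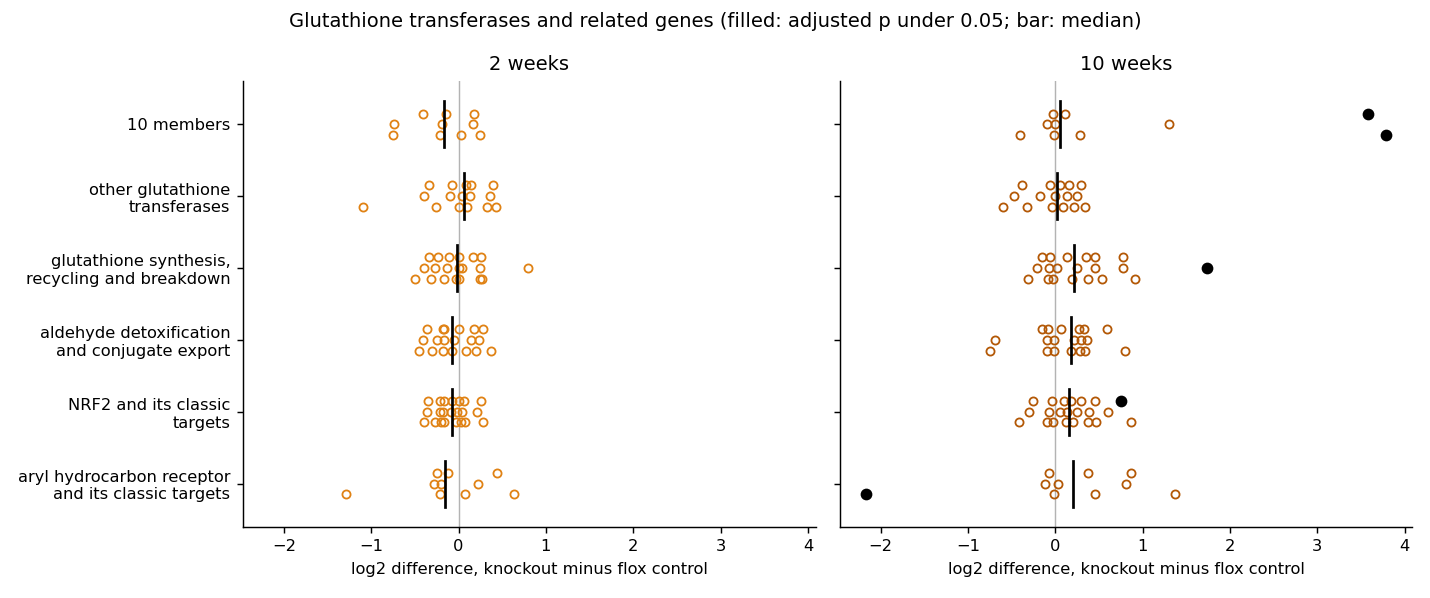
Log2 difference between knockout and flox control hearts (horizontal axis) at 2 weeks on the left and 10 weeks on the right, with 1 point per gene for the 10 glutathione transferases and 5 related lists (vertical axis). Filled points had an adjusted p under 0.05 and bars are medians. Gsta1, Gsta2, Chac1 and Ftl1 are the filled points to the right at 10 weeks and Cyp1a1, at -2.17, the one to the left.

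The genes whose pattern over the 15 arrays was most like the mean of Gsta1 and Gsta2 were Adssl1, a muscle enzyme of the purine nucleotide cycle (Pearson's r = 0.962), Asns, the asparagine synthetase (0.961), Hspe1, a mitochondrial chaperonin (0.958), Atf5, a stress transcription factor (0.958), and Gpx4, which reduces lipid peroxides in membranes (0.948). The late knockouts form a cluster of their own on all of these, so r mainly measures that separation. The genes differed in size at 10 weeks, from 0.44 ± 0.08 for Hspe1 and 0.46 ± 0.08 for Gpx4 to 2.30 ± 0.30 for Asns, all below Gsta1 and Gsta2. Within the family r with that mean was 0.68 for Gsta4 and -0.55 for Gstk1.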

How the data were processed

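Ventricle RNA of 15 hearts (500 ng each) was measured on 2-colour Agilent arrays, per the labels' protocols. The authors deposited a table of 41267 probes on 15 arrays, taken here as log2 ratios, heart over reference. For log base, direction, background correction and array scaling the entry is: not given in the sources used here. No value was missing, and each probe had a median of 0. Probe symbols came from GEO's platform annotation: 32664 probes had 1 symbol, 45 several, 8465 none, and 93 were control spots. A gene is the mean of its probes with 1 symbol (19532 genes).

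Differences were fitted with limma 3.58.1 (lmFit, eBayes) in R 4.3.3 on all 15 arrays with 4 group means, leaving 11 residual degrees of freedom plus 2.07 from moderation. P-values are two-sided and Benjamini-Hochberg adjusted over all genes, with calls at 0.05. P-values measure the spread between the deposited samples. The fit was tested on simulated data. Members and lists were chosen with earlier results of these data known. Named are all members, called genes and up to 3 of the smallest p per list and contrast, and the 5 genes most correlated with Gsta1 and Gsta2. Promoters were aligned with Biopython 1.88. Alternatives covered scaling, probe choice, arrays in the fit, weights, a replicate block and leaving out each array.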

Additional observations from a re-analysis of the deposited data

Results flagged for a closer look

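Of 30 sets of 4 arrays (10 genes in 3 groups), 2 held an array far from the others, and chance gives about 1 in 20. Gsta3 in knockout 10 weeks replicate 3 was -0.11, where the other late knockouts lay between 0.08 and 0.11. Gsta4 in knockout 10 weeks replicate 1 was 0.01, where the others lay between 0.31 and 0.37.

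For Gstm1 each knockout lay below the mean of its controls at 2 weeks and above it at 10 weeks. The effect at 10 weeks minus that at 2 weeks was 0.25 ± 0.17, and this difference was not tested.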

How the results depend on the processing

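At 2 weeks 0 of 10 members and 0 of 82 list genes were called in limma under all 22 alternatives, among them the replicate block (0 members), while all genes called ranged from 0 to 10 against 1 as reported. The 10-week calls of Gsta1 and Gsta2 led to the choice of the family, so their count, 2 in all 22 and with the replicate block, is a description that supports nothing, and leaving out each array in turn gave 3.10 to 3.84 for Gsta1 and 3.61 to 4.16 for Gsta2. List genes called at 10 weeks numbered 1 with limma fitted to the late hearts only, where neither Chac1, Ftl1 nor Cyp1a1 passed (adjusted p = 0.0622, 0.0635 and 0.0635) and Abcc1 did (0.046), 2 with the replicate block, and 1 to 4 when 1 array was left out. All genes called at 10 weeks ranged from 50 to 192 against 134. No difference of Gsta1, Gsta3, Gstm1, Gstm2, Gstk1 or Gstt1 at 2 weeks changed sign. When 1 array was left out the sign turned for Gsta2 (-0.02 to 0.39), Gstp1 (-0.03 to 0.08) and Gstt2 (-0.20 to 0.69). Gsta4 ran from -0.35 to 0.00. The cause was not tested. Gsta3 at 2 weeks ran from -1.22 to -0.26 over probes and settings, with adjusted p from 0.0525 (without knockout 2 weeks replicate 1) to 0.792. Deviations of same-numbered knockout and control arrays correlated at -0.03 to 0.06, and those of differently numbered arrays at -0.06 to 0.04. The highest values at 10 weeks, 0.05 and 0.06, belonged to same-numbered arrays. Values this near 0 cannot settle whether the numbers pair the arrays. The replicate block gave -0.70 for Gsta3 and -0.39 for Gstk1 at 2 weeks, and 71 genes called at 10 weeks; it ended the call of Cyp1a1 and of no other list gene or member. Quantile normalization moved the median of all genes by 0.0193 at 2 weeks and 0.0167 at 10 weeks.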
